A study of Mus musculus with 8 samples.

Results

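The genes Mup3, Mup20 and Mup21, which encode major urinary proteins, were followed in RNA sequencing values of 8 liver and tumor samples of Fah-/- mice. They are 3 of the 22504 gene identifiers listed in the deposited table. Mup20 and Mup3 were chosen by measured values, because they stood among the largest rises from C 8w to C 12w in an earlier look at the same table, and Mup21 was named with them as a relative. Of the 10244 genes tested, sorted by the difference C 12w minus C 8w from the highest, Mup20 had rank 3, Mup3 had rank 7 and Mup21 had rank 543. That difference is therefore given for these 3 genes as a description, with no test.

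All 8 samples were labelled as Fah-/- mice of the strain background 129S4. Fah is the last enzyme of tyrosine breakdown, and mice without it are protected by NTBC, a drug that blocks the pathway upstream and that was supplied in drinking water at 7.5 mg/L. The 3 C 8w samples (1a, 2a and 3a, labelled liver) came from moderate chronic liver injury, in which mice received 2.5% of that NTBC for 8 weeks. The 2 C 12w samples (2e and 3e, labelled tumor) came from 12 weeks of the same injury. The 3 C 8w + A 4w samples (C096, C097 and C098, labelled liver) came from 8 weeks of it followed by 4 weeks without NTBC, which causes severe acute liver injury. No sample of healthy mice on full NTBC was analysed here, the labels give neither age nor sex, and time and tissue differ together between C 12w and C 8w.

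Major urinary proteins are small secreted lipocalins, barrel-shaped proteins that carry volatile pheromones. In mice they are made mainly by hepatocytes, pass through the blood into urine and serve as scent marks. Mup20, also called darcin, is a male pheromone that attracts females. Transcription of these genes in liver is known to depend on pulses of growth hormone, acting through the receptor Ghr and the factor Stat5b, and on glucocorticoid, thyroid hormone and androgen, and it is usually higher in males.

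In the RefSeq annotation of the reference genome GRCm38.p6 the cluster spans chr4:59956804-62150841 and holds 22 Mup genes and 23 further symbols of Mup pseudogenes. The 3 genes lie next to each other at one edge of it, on the minus strand. In the GENCODE M21 annotation of GRCm38, Mup20 lies at chr4:62050234-62054158, Mup3 at chr4:62083476-62087342 and Mup21 at chr4:62147932-62150863. Between Mup20 and Mup3 lie 29317 bases, and between Mup3 and Mup21 60589 bases. The submitters' processing notes name the build mm8, so these positions describe the reference and not the authors' coordinates.

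The ends of the coding sequences are shown as a stretch in which the genes can be set side by side, and they are more alike there than over their whole length. The last 60 coding bases of each gene, stop codon included, are given from the reference transcripts in the coding direction, with capitals where a base differs from Mup20. Mup9, the most abundant Mup gene of the C 8w samples, stands beside them.
Mup20: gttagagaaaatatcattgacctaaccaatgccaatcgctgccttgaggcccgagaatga
Mup3: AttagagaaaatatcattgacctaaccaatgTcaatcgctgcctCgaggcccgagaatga
Mup21: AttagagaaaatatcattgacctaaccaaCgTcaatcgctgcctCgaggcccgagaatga
Mup9: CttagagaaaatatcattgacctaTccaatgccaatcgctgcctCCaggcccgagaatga
In this stretch Mup3 differed from Mup20 at 3 bases, and Mup21 and Mup9 at 4 bases each. Over the whole coding sequence, in a global alignment, Mup3 and Mup21 were 94.8% identical, Mup3 and Mup20 87.1%, and Mup20 and Mup21 88.0%. Mup20 was 91.0% identical to Mup9, whereas Mup9 and Mup17 were 99.3% identical. For the 19 other Mup genes of the annotation, the nearest relative was a median 99.6% identical.

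This likeness bears on the values, because a short read from one copy can be counted for another. Of the 50-base windows of the Mup3 transcripts, 13.3% also occurred in another gene, and the most in Mup21. For Mup21 19.3% were shared, the most (17.8%) with Mup3. For Mup20 50.5% were shared, the most (48.0%) with the pseudogene Mup-ps19. Mup9 and Mup17 shared 79.1% and 78.1%. Mup6 shared 4.0%, so that it was the Mup gene with the least shared sequence. Values of Mup20, Mup9 and Mup17 are accordingly uncertain between copies, and it is not given in the sources used here how reads with several matches were handled.

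**Figure D1:**
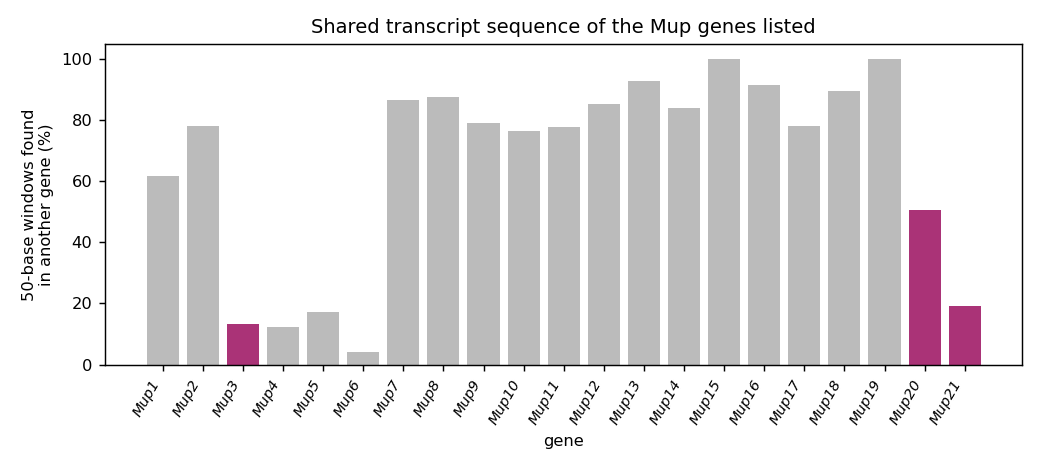
Percentage of the 50-base windows of each Mup gene's reference transcripts that occur in another gene (vertical axis), for the 21 Mup genes listed in the table, with Mup3, Mup20 and Mup21 in purple. Mup3 and Mup21 stand at 13.3% and 19.3%, Mup20 at 50.5%, and most of the other bars lie above it.

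The sequence before the start of transcription was available from RefSeq (GRCm38.p6) for Mup3 and Mup21 and for 14 Mup genes in all. The 210 bases before the start annotated by RefSeq are given for Mup3 and Mup21, and for Mup9, whose level ran the other way. GENCODE M21 places the start of Mup3 25 bases and that of Mup21 22 bases further upstream, so the last bases printed for these genes, TATATAA among them, lie within the transcripts as GENCODE gives them, while both sources give Mup9 the same start. Capitals mark TGTTCT, a core motif of the glucocorticoid and androgen receptors, and TATATAA, which resembles the TATA box and was added to the search after the sequences had been seen.
Mup3, chr4:62087318-62087527: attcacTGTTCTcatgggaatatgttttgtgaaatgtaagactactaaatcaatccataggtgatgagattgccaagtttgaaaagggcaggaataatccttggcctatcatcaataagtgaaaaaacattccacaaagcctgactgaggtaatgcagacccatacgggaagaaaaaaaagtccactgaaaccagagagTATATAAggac
Mup21, chr4:62150842-62151051: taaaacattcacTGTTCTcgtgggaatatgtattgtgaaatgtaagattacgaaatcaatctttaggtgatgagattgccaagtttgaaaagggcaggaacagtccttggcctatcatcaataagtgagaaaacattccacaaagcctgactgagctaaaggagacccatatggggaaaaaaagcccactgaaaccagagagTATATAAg
Mup9, chr4:60421953-60422162: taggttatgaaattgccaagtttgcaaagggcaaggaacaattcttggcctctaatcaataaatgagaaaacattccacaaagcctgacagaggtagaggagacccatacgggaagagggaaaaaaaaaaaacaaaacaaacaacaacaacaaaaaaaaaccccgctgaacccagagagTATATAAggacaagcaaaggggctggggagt
Over the 250 bases before the start, Mup3 and Mup21 were 89.1% identical, and Mup3 and Mup9 56.0%. The windows of Mup3 and Mup9 are shifted against each other, with TATATAA 11 to 5 bases before the start of Mup3 and 31 to 25 bases before that of Mup9, so part of the lower value comes from unmatched ends. TGTTCT lay 204 to 199 bases before the start of Mup3 and 198 to 193 bases before that of Mup21. It was not found in the windows of the 12 other Mup promoters searched. Because of the shift, the matching place in Mup9 can lie beyond the 250 bases searched. The search therefore cannot decide whether Mup9 lacks the motif, and the shift of the other windows was not tested. On either strand, TGTTCT occurred in 2 of 14 Mup promoters and in 19.0% of all 32851 promoter windows. These windows run from 250 bases before to 50 bases after a start. TATATAA occurred in 13 of 14 Mup promoters against 3.24% of all windows. TATAAA was in 2 of 14 against 13.6%, with some matches overlapping TATATAA, and AGGTCA, a core motif of nuclear receptors, in 1 of 14 against 16.3%. The STAT5-type motif TTCNNNGAA (8.3% of all windows), TTGCAAT of the C/EBP type (2.22%) and TTATGTAA of the D-site type (0.938%) were found in 0 of 14. These matches describe letters in a window and do not show a binding site.

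The measured values are FPKM, fragments scaled to gene length and to the mapped fragments of a sample, which allow levels of different genes to be compared. Reads cannot be recovered from them, and depth is unknown. They summed to between 324735 and 399342 per sample over all genes. Differences between groups were tested by limma on the log2(FPKM + 1) scale, with all 8 samples in the fit, for the 10244 genes that reached an FPKM of 1 in 4 or more samples, and a Benjamini-Hochberg adjusted p under 0.05 is a call. On this scale the changes of low genes are understated. All 3 genes passed the floor.

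Mup3 was highest in the tumor samples of C 12w. Its FPKM was 3.81 in 1a, 1.68 in 2a and 2.44 in 3a. It was 0.190 in C096, 1.50 in C097 and 1.16 in C098. In the tumors it was 32.3 in 2e and 50.3 in 3e. Both C 12w samples lay above the 6 others, the 3 C 8w + A 4w samples lay below the 3 C 8w samples, as they did for 22.3% of the genes tested, and no groups overlapped. The tumors averaged 41.3 ± 12.7 (SD, n = 2), the C 8w livers 2.64 ± 1.08 (SD, n = 3) and the C 8w + A 4w livers 0.951 ± 0.680 (SD, n = 3). The C 12w mean was thus 15.6 times the C 8w mean, and the difference was 3.54 ± 0.36 (SE) on the log2(FPKM + 1) scale.

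Mup20, the darcin gene, was also highest in C 12w, but the pair of tumors differed most for it. Its FPKM was 1.88 in 1a, 1.26 in 2a and 1.59 in 3a, close together. It was 0.982 in C096, 4.85 in C097 and 2.22 in C098, a range that took in all C 8w values. In the tumors it was 13.8 in 2e and 95.2 in 3e, which is 6.92 times as much. Both tumors lay above the 6 liver samples. The tumors averaged 54.5 ± 57.6 (SD, n = 2), the C 8w livers 1.58 ± 0.31 (SD, n = 3) and the C 8w + A 4w livers 2.68 ± 1.97 (SD, n = 3). The log2(FPKM + 1) difference C 12w minus C 8w was 3.88 ± 0.70 (SE), but 5.23 from 3e alone and 2.53 from 2e alone.

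Mup21 stayed low throughout. Its FPKM was 0.743 in 1a, 0.492 in 2a and 0.989 in 3a, below 1 in all C 8w samples. It was 1.23 in C096, 2.28 in C097 and 1.41 in C098, and 1.19 in 2e and 3.56 in 3e. Every C 8w value lay below the 5 others, and the tumors lay on either side of the C 8w + A 4w samples. The tumors averaged 2.38 ± 1.68 (SD, n = 2), the C 8w livers 0.741 ± 0.249 (SD, n = 3) and the C 8w + A 4w livers 1.64 ± 0.56 (SD, n = 3). The log2(FPKM + 1) difference C 12w minus C 8w was 0.87 ± 0.30 (SE), with 1.40 from 3e alone and 0.34 from 2e alone.

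**Figure D2:**
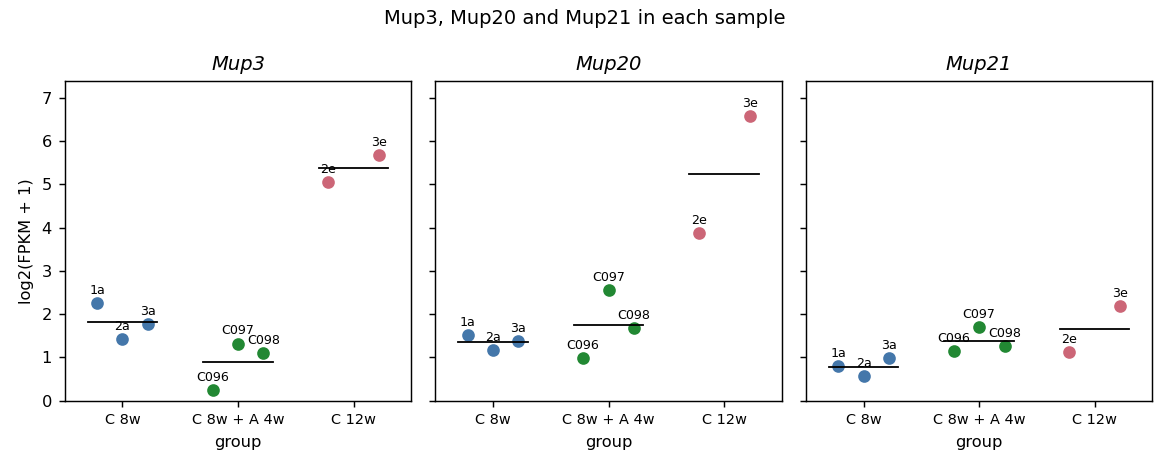
Level of Mup3, Mup20 and Mup21 in each of the 8 samples as log2(FPKM + 1), with points for samples and black lines for group means on that scale. Mup3 and Mup20 are highest in both C 12w samples, Mup20 is parted between 2e and 3e, and Mup21 is low in all groups.

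In both tumors all 3 genes were thus higher than in every C 8w sample, a pattern that 34.9% of the genes tested showed, and that was part of the choice for Mup3 and Mup20. In this comparison limma called 12.2% of the genes tested higher and 6.98% lower in C 12w, and nothing is read from these shares for the 3 genes. The median of all genes tested was 0.12 on the log2 scale, and 63.6% of the calls were higher. With median-ratio scaling that median was -0.01 and 44.0% of the calls were higher, while the differences of the 3 genes moved by less than their spread. In bulk tissue, fewer cells of a type and less RNA per cell cannot be told apart.

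The tumor samples also differed from the livers in their markers. The summed FPKM of 7 bile duct and progenitor markers lay between 255 and 350 in the tumors, 10.5 and 17.6 in the C 8w livers, and 32.0 and 38.3 in the C 8w + A 4w livers, and of the 5 tested 4 were called higher in the tumors than in C 8w (against 12.2% of all genes), or 3 with median-ratio scaling, 2 with quantile normalization and 2 without C097 and C098. Different genes carried the sum in each tumor: Tff3 was 227 in 2e and 11.7 in 3e, and Spp1 was 22.2 and 311. The summed FPKM of 6 proliferation markers lay between 25.1 and 41.2, 2.59 and 3.73, and 1.29 and 3.36 in the same order, and each of them was above 0 in all samples. Between tumors and C 8w livers, 0 of 8 macrophage markers, 1 of 6 stellate cell markers (higher) and 3 of 6 endothelial markers (lower) were called, against 12.2% higher and 6.98% lower of all genes. The macrophage markers summed to 438 in C097 and to between 124 and 188 in the 7 others. Of 12 hepatocyte markers 11 had an FPKM of at least 1 in all samples. Without Alb, which was listed at 0 in all C 8w and C 12w samples, the lowest and highest sums were 11020 and 13690 for C 8w, 11120 and 13380 for C 8w + A 4w, and 11010 and 15870 for the tumors. Single hepatocyte markers did move: after withdrawal, 3 of the 11 tested were called lower than in C 8w (27.3%, against 14.1% of all genes), where Cps1 fell by 1.10, Tdo2 by 0.99 and Hpd by 1.46, and 1 was higher (9.09%, against 25.3%), Apoa1, which rose by 1.05. Without C097 and C098 1 was called lower and 0 higher. In the tumors Hpd fell by 1.11 and Apob rose by 0.88. The Apob call was lost with median-ratio scaling and without C097 and C098, whereas with quantile normalization 3 hepatocyte markers were called higher. The part of these cells in the Mup values was not tested. Lacrimal and salivary glands also make Mup proteins, and of 6 markers listed for them 5 were listed at 0 in all 8 samples, the other being Amy1. The extraction label speaks of retina, but of 8 retina markers all but Gnat1, at 1.95 to 3.57, were under 0.1 FPKM in all samples.

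After 4 weeks without NTBC, Mup3 was lower than after chronic injury alone, and Mup21 was not called. The C 8w values entered the choice of Mup3 and Mup20, so their differences here are a description, with no test. Mup3 fell by 0.93 on the log2(FPKM + 1) scale (SE 0.32), and its mean was 0.360 times that of C 8w. Over 16 alternatives its difference lay between -1.64 and -0.61. Without C096, the sample with the lowest value, the difference was -0.61, and without 1a it was -0.71. Mup20 differed by 0.38 ± 0.63 (SE), less than the spread between samples. Mup21 differed by 0.59 ± 0.27 (SE, limma adjusted p = 0.116), with all 3 C 8w + A 4w samples above the 3 C 8w samples, as for 39.0% of the genes tested. Its C 8w values were all below the floor, so it passed only through samples of the other groups. Its test and this separation are thus tied in part to the filter. It was called in 3 of 16 alternatives, those that left out a tumor or both, with differences between 0.37 and 1.04 over all. In this comparison 25.3% of the genes tested were called higher and 14.1% lower, with 64.2% of the calls higher, or 46.7% with median-ratio scaling, and a median of 0.12 over all genes. So Mup21, the 1 gene tested here, was not called in a comparison in which calls were common.

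Against C 12w, the C 8w + A 4w samples had less Mup3 and Mup20. Their C 12w values are the ones they were chosen on, so these differences too are a description, with no test. Mup3 had a difference of -4.47 ± 0.36 (SE) on the log2(FPKM + 1) scale, and the C 12w mean was 43.4 times the C 8w + A 4w mean. Mup20 had a difference of -3.50 ± 0.70 (SE), with a C 12w mean 20.3 times as high. Mup21, which was not chosen by its values, differed by -0.28 ± 0.30 (SE, limma adjusted p = 0.51), and its groups overlapped. Without 3e its difference was 0.25, and without 2e it was -0.81 (limma adjusted p = 0.0268). Of the genes tested, 15.4% were called lower and 17.4% higher in C 8w + A 4w, and 24.2% were higher in both tumors than in each C 8w + A 4w sample, as Mup3 and Mup20 were.

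The C 8w + A 4w samples were not alike in their Y-linked genes, which bears on genes with a male bias. Eif2s3y, an initiation factor gene of the Y chromosome, was listed at 0 in C096 and in all C 8w and C 12w samples, but at 26.7 in C097 and 26.1 in C098. Ddx3y, a Y-linked helicase gene, was likewise at 0 in those 6 samples and at 13.7 and 10.2 in C097 and C098. These 2 samples also had more Mup3 (1.50 and 1.16 against 0.190), more Mup20 (4.85 and 2.22 against 0.982) and more Mup21 (2.28 and 1.41 against 1.23) than C096. The part of this difference in the Mup values was not tested, as C096 is 1 sample. Without C097 and C098, an alternative added after seeing the data, the group is C096 alone. The differences C 8w + A 4w minus C 8w were then -1.57 for Mup3, -0.37 for Mup20 and 0.37 for Mup21, and against C 12w they were -5.12, -4.25 and -0.50. The C 8w + A 4w samples also carry another series of sample codes than the 5 others, and this difference cannot be told apart from the treatment. Alb, for one, was listed at 0 in all 5 samples of one series and at 12950 to 16950 FPKM in the other. Only the comparison of C 12w with C 8w lies within 1 series.

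Of the other Mup genes only Mup9 and Mup6 could be tested, and both ran the other way from Mup3 and Mup20 between C 8w and C 12w. Mup9 passed the floor through the 3 C 8w samples and 2e, and Mup6 through the 3 C 8w samples, C096 and C097. That the genes tested were high in C 8w is thus tied in part to the filter. Of 18 others listed, 15 had an FPKM below 1 in all samples, 4 of these at 0 throughout, with a highest value of 0.328. Most of these have near-identical copies, and Mup15 and Mup19, which are listed at 0, shared all of their 50-base windows, so such values do not show whether these genes changed. Mup9 was the leading Mup gene of the C 8w livers, at 14.6 in 1a, 14.0 in 2a and 9.91 in 3a. It was 0.0873 in C096, 0.323 in C097 and 0.240 in C098, and 1.40 in 2e and 0.280 in 3e. All 3 C 8w samples thus lay far above the 5 others. Mup9 fell by 2.96 on the log2 scale from C 8w to C 12w (SE 0.27, limma adjusted p = 0.00102) and by 3.49 from C 8w to C 8w + A 4w (SE 0.24, limma adjusted p = 1.57e-05). Mup6, with the least shared sequence, was 3.32, 2.45 and 3.26 in the C 8w livers, 2.08, 1.56 and 0.559 in C096, C097 and C098, and 0.857 and 0.597 in the tumors. It fell by 1.21 from C 8w to C 12w (SE 0.27, limma adjusted p = 0.0185) and by 0.79 from C 8w to C 8w + A 4w (SE 0.24, limma adjusted p = 0.0292), and these calls held in 12 of 17 and 11 of 16 alternatives. Mup17 was 1.35, 1.21 and 1.13 in the C 8w livers, 0.0638 to 0.483 in the C 8w + A 4w livers, 0.241 in 2e and listed at 0 in 3e, and it did not pass the floor for a test. Mup9 and Mup17 have near-identical copies, so their values may hold reads of each other and of further copies.

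**Figure D3:**
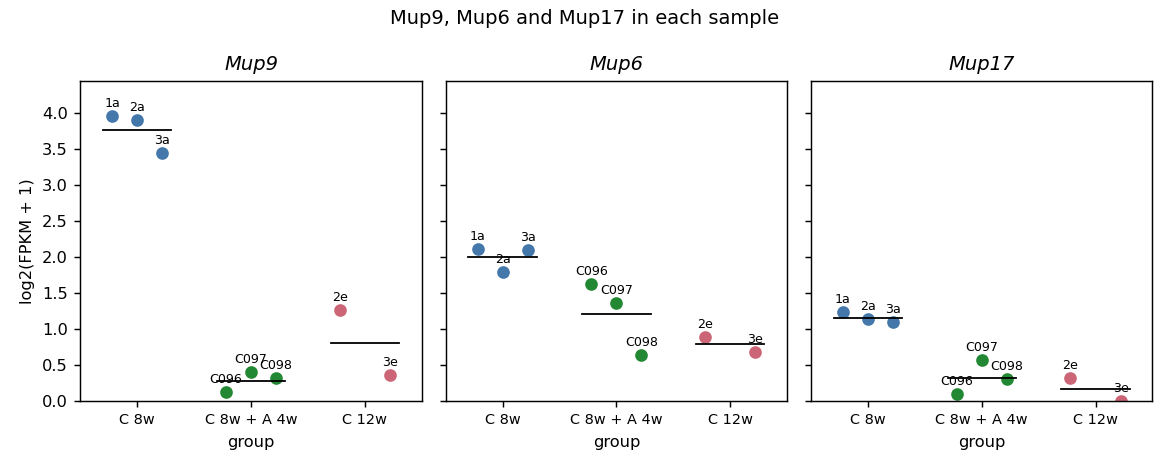
Level of Mup9, Mup6 and Mup17 in each of the 8 samples as log2(FPKM + 1), with points for samples and black lines for group means on that scale. The 3 genes are highest in the C 8w samples, with Mup9 at 9.91 to 14.6 FPKM there.

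The make-up of the summed Mup FPKM therefore differed between groups. Over the 21 genes listed it was 26.0 in 1a, 21.6 in 2a and 19.6 in 3a. It was 4.74 in C096, 11.3 in C097 and 5.82 in C098, and 49.9 in 2e and 150.0 in 3e. The 3 genes together took 24.8%, 15.9% and 25.6% of it in the C 8w samples, 50.7%, 76.7% and 82.3% in the C 8w + A 4w samples, and 94.6% and 99.4% in the tumors. The leading gene was Mup9 in all C 8w samples, Mup6 in C096, Mup20 in C097, C098 and 3e, and Mup3 in 2e. Since Mup3 and Mup20 were chosen for their high level in C 12w, these shares are a description.

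**Figure D4:**
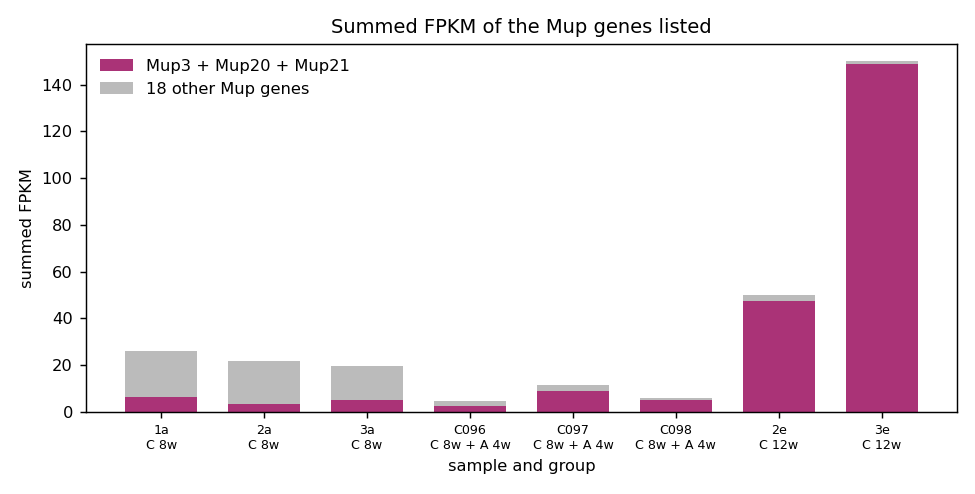
Summed FPKM of Mup3, Mup20 and Mup21 (purple) and of the 18 other Mup genes listed (grey) in each of the 8 samples. The sum is 150.0 in 3e and 49.9 in 2e, nearly all of it purple, while most of the C 8w bars is grey.

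The genes at the edges of the cluster served as a comparison of place. Inip, Snx30 and Slc46a2 are the nearest genes before it, and Zfp37, Slc31a2 and Fkbp15 the nearest after it, beyond Mup21. Of the 4 that were tested, 0 were called between C 12w and C 8w by limma (against 12.2% higher and 6.98% lower of all genes), and 0 of them had an unadjusted p under 0.05. After withdrawal Inip rose by 0.36 over the C 8w livers (limma adjusted p = 0.0275), and Fkbp15 was lower than in the tumors, with a difference of -0.39 (limma adjusted p = 0.0321). Fkbp15 had an FPKM of 4.75 and 5.65 in C 12w against 3.99 to 4.52 in C 8w. Zfp37, a zinc finger gene under the floor, lay between 0.200 and 0.424 in the C 8w livers, 0.855 and 2.51 in the C 8w + A 4w livers, and 0.945 and 1.68 in the tumors. Slc46a2 was listed at 0 in all samples.

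Factors that are known to act on Mup transcription were taken as a list of 27 genes, 25 of them tested. Between C 12w and C 8w 3 were called higher and 3 lower (12% each, against the 12.2% and 6.98% of all genes), and their median difference was 0.04 against 0.12 over all genes. Bcl6, a repressor known to oppose Stat5 in liver, mainly at female-biased genes, had an FPKM of 10.7 and 17.2 in the tumors, against 3.19 to 5.29 in the C 8w livers and 1.87 to 2.76 in the C 8w + A 4w livers, and rose by 1.44 from C 8w to C 12w (SE 0.24, limma adjusted p = 0.00765). Foxa3, a forkhead factor of hepatocytes, rose by 1.20, and Zhx2, a factor known to regulate Mup genes in mouse liver, rose by 0.66 on the same scale. Zhx2 had an FPKM of 3.40 and 4.02 in C 12w against 1.83 to 2.23 in C 8w. Cebpb, a liver transcription factor, fell by 1.26, the clock-controlled factor Tef by 0.75, and Stat5a by 0.41. The Stat5a call held in 9 of 17 alternatives and in 3 of 8 fits without a single sample, and that of Foxa3 in 13 of 17 and 5 of 8. Onecut1, the liver factor that was 1.83 in 2e and 9.96 in 3e, and Ghr, at 47.0 and 30.1, were not called.

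Growth hormone output genes, 9 in number and all tested, gave 0 calls between C 12w and C 8w by limma (against 12.2% higher and 6.98% lower of all genes), and 2 (both lower) had an unadjusted p under 0.05. Igf1, the hormone that the liver makes on growth hormone signals, was 33.5 in 2e and 13.7 in 3e against 10.3 to 19.4 in C 8w. After NTBC withdrawal 4 of the 9 were called lower and 1 higher (44.4% and 11.1%, against 14.1% and 25.3% of all genes). Of the 9, Ghr, Socs2 and Cish also stand in the factor list, so the fall of Ghr is counted in both lists. Igfals, which carries Igf1 in blood, fell by 2.74 (SE 0.39, limma adjusted p = 0.001), with 14.7 to 27.8 FPKM in the C 8w livers and 1.34 to 3.62 in the C 8w + A 4w livers. Igf1 fell by 1.81 and the growth hormone receptor Ghr by 1.37, and Igfbp3, another carrier, rose by 0.60. The Igfbp3 call held in 6 of 16 alternatives and in 3 of 8 fits without a single sample, and was lost with median-ratio scaling. Of the factor list, 9 of 25 were called lower and 1 higher after withdrawal (36% and 4%, against 14.1% and 25.3% of all genes), with Ghr, Nr1d1 and Thra as the largest falls and Jak2, the kinase of the growth hormone receptor, as the rise, by 0.47. The calls of Nr1d1 and Jak2 each held in 10 of 16 alternatives and in 4 of 8 fits without a single sample. Without C097 and C098, 4 were called lower and 0 higher.

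The sex-biased liver genes, read as lists written by hand, did not move as one with Mup3 and Mup20. Of 25 male-biased genes, 14 were tested, with 1 called higher and 2 lower in the tumors than in the C 8w livers (7.14% and 14.3%, against 12.2% and 6.98% of all genes), and a median of 0.03 against 0.12 over all genes. C8b, a complement component, rose by 2.11 (SE 0.59, limma adjusted p = 0.0399), but was 52.4 in 2e and 8.91 in 3e, and the call held in 1 of 8 fits without a single sample and was lost with median-ratio scaling. Sult1d1, a sulfotransferase, and Cyp2d9, a cytochrome, fell by 1.16 and 1.08, and these calls held in 11 and 13 of 17 alternatives and in 4 and 6 of 8 fits without a single sample. Hsd3b5, Elovl3 and Slco1a1, defining male genes of mouse liver, were below 1 FPKM in all 8 samples. Of the others under the floor, Ugt2b38 lay between 0.0139 and 0.0398 in the C 8w livers and 6.42 and 29.6 in the C 8w + A 4w livers, and Gstp2 between 0.142 and 0.566 and between 3.67 and 8.83. After withdrawal 3 of the 14 were called higher, with Serpina1e at 3.19 and Cyp4a12b at 2.75 in the lead, and 5 lower, of which Ugt2b1 fell by 3.08. These are 21.4% and 35.7% of the 14, against 25.3% and 14.1% of all genes. Several of these genes belong to families of close copies, such as Serpina1e and Cyp4a12b, and how far their reads are shared was not tested.

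Many female-biased genes were lower in each of the other groups than in C 8w. Of 32 in the list 25 were tested, and in the tumors 14 of them were called lower and 0 higher by limma (56% lower, against 6.98% of all genes), with a median of -1.92 and 3 higher at an unadjusted p under 0.05. Median-ratio scaling gave 15 lower and 0 higher. Sult2a1, a sulfotransferase, fell by 5.07 (SE 0.32, limma adjusted p = 0.000287), with 605 to 679 FPKM in the C 8w livers and 29.1 and 11.0 in the tumors. The cytochrome Cyp3a16 fell by 4.82. Many genes of this list, Sult2a1 and Cyp3a16 among them, belong to families of close copies, whose members are counted singly in these shares. How far their reads are shared was not tested. After withdrawal 11 were called lower and 1 higher (44% and 4%, against 14.1% and 25.3% of all genes), with a median of -1.31, and among the larger falls Cyp17a1, an enzyme of steroid synthesis, fell by 5.71 and Hao2 fell by 4.02. The call that was higher, Cyp2a5, is a gene listed at 0 in 2a and 3a and at 7546 in 1a, so no fold is given for it. Cux2, a repressor that marks female liver and is also in the factor list, had an FPKM of 2.56 to 3.96 in the C 8w livers and 0.218 to 0.767 in the 5 other samples. It did not pass the floor for a test. In the C 8w livers and the tumors the Y-linked genes were listed at 0 throughout.

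**Figure D5:**
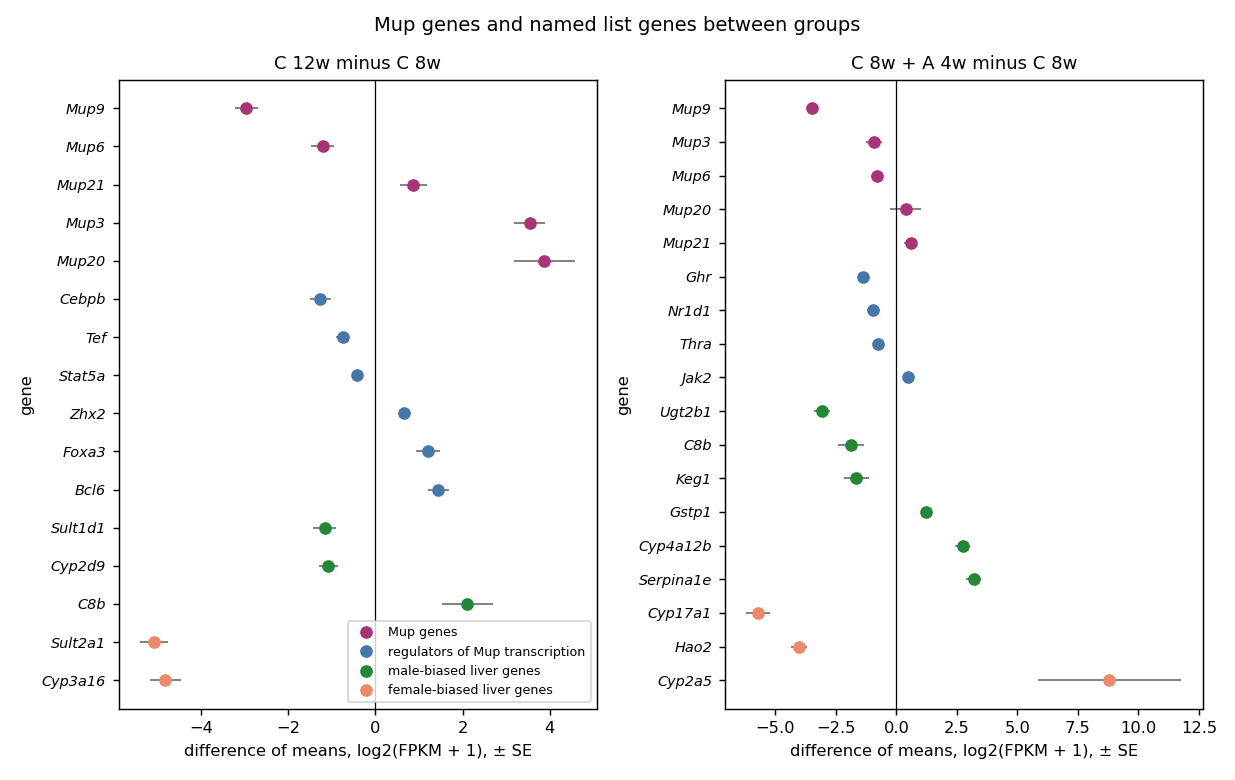
Differences of group means of log2(FPKM + 1) with their standard errors, for the 5 Mup genes that passed the floor and for the named factors, male-biased and female-biased genes called, for C 12w minus C 8w (left) and for C 8w + A 4w minus C 8w (right). Mup3 and Mup20 lie at 3.54 and 3.88 on the left and at -0.93 and 0.38 on the right, while Mup9 and Mup6 are below 0 in both.

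Other lipocalins of liver were a further point of reference. Of 11 in the list 8 were tested, with 1 called higher and 2 lower in the tumors than in C 8w (12.5% and 25%, against 12.2% and 6.98% of all genes), and a median of -0.45. Lcn2, which binds bacterial iron carriers, rose by 1.44 (SE 0.26, limma adjusted p = 0.00931), with 9.29 to 12.3 FPKM in the C 8w livers and 43.3 and 22.7 in the tumors. Orm3 and Orm2, acute phase proteins, fell by 1.95 and 1.94. After withdrawal Lcn2 rose by 1.86, and 4 were called lower (12.5% higher and 50% lower, against 25.3% and 14.1% of all genes). Of these, Orm2 fell by 2.08, C8g fell by 1.59 and Ambp fell by 0.80. With median-ratio scaling 5 were called lower. The median of the 8 was -0.73, or -0.57 without C097 and C098.

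The genes whose levels over the 8 samples were most like those of each Mup gene differed between the 3. By Pearson's r of log2(FPKM + 1) over 8 samples, which fall into 3 groups and share their scaling, Grb14 was nearest to Mup3 (r = 0.990), followed by Ablim1, Cfi, Nab2 and Ifi27. Nedd4l was nearest to Mup20 (r = 0.988), followed by Lpp, Tmem176b, Pls1 and Tmpo. Cdk6 was nearest to Mup21 (r = 0.980), followed by Fam72a, Phldb2, Serpinb6b and Cxcl14. Among themselves, Mup3 and Mup20 had an r of 0.899, Mup20 and Mup21 0.794, and Mup3 and Mup21 0.474, and since Mup3 and Mup20 were both chosen for their rise in C 12w, and Mup21 was not, these values partly restate that choice. Grb14, an adaptor of the insulin receptor, was 15.8 and 18.4 in C 12w against 3.47 to 5.97 in the 6 other samples, and Cdk6, a cell cycle kinase, was 3.96 in 2e and 7.42 in 3e, parted as Mup21 was.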

How the data were processed

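RNA of Fah-/- liver and tumor samples was sequenced, namely 3 labelled C 8w, 3 labelled C 8w + A 4w and 2 labelled C 12w. Groups came from the treatment labels. The authors deposited FPKM values in one table of 22504 Ensembl identifiers, of which 22314 matched a symbol, with 0 columns of other samples. Per the labels, the submitters' processing notes list Bowtie 0.12.2 and the build mm8, with no role. The quantifier is not given in the sources used here. Values above 0 were as low as 2.03e-283, so they are estimates and depth cannot be recovered.

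The tests used limma 3.58.1 under R 4.3.3 (lmFit, eBayes with a trend, two-sided) on log2(FPKM + 1), without further scaling. The labels do not state separate animals for each sample, and p-values measure only the spread between these samples. The fit was tested on simulated data. Sequences were compared with Python 3.11.15 and Biopython 1.88. Protein sequences were not used here, so coding sequences took their place. Genes outside the 3 are named by rule: from each list up to 3 called rises and falls, the 3 nearest genes on each side, and the 5 most alike. Hsd3b5, Elovl3, Slco1a1, Ugt2b38, Gstp2, Onecut1 and Cux2 were chosen after their values were seen. Values of 1 listed gene are left out of the text. The members and lists were chosen with earlier results of these data known. Alternatives were a pseudocount of 0.1, a floor of 0.1 in 2 samples or none, median-ratio and quantile scaling, the fit of just the 2 groups compared, eBayes without a trend, each sample left out, a replicate block, windows of 36 and 75 bases and, added after seeing the data, omission of C097 and C098.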

Additional observations from a re-analysis of the deposited data

How the results depend on the processing

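With each sample left out in turn, the difference C 12w minus C 8w lay between 2.53 and 5.23 for Mup20 and between 0.34 and 1.40 for Mup21, and with a pseudocount of 0.1 that of Mup21 was 1.41. The difference C 8w + A 4w minus C 8w lay between -1.14 and -0.61 for Mup3, between -0.0211 (without C097) and 0.76 for Mup20, and between 0.42 and 0.70 for Mup21, which was 1.04 with a pseudocount of 0.1. For Mup3 that difference was -1.64 with a pseudocount of 0.1. It was -0.93 with no floor and with a floor of 0.1 in 2 samples. Mup21 was called at 0.59 with only the 2 groups compared. The difference C 8w + A 4w minus C 12w of Mup21 lay between -0.81 and 0.25. Without C097 and C098 the difference C 8w + A 4w minus C 8w of Mup20 was -0.37. The number of genes called was 1962, 4034 and 3356 in C 12w minus C 8w, C 8w + A 4w minus C 8w and C 8w + A 4w minus C 12w. It lay between 677 and 3702, 2469 and 5189, and 2494 and 4214 with each sample left out. Without C097 and C098 it was 2511 for C 8w + A 4w minus C 8w and 1997 against C 12w, and the latter was 1996 with only the 2 groups compared. With a lone sample of C 12w or of C 8w + A 4w, that sample is assumed to vary like the other groups. The numbers 2 and 3 are shared by C 8w and C 12w, but nothing pairs them: the replicate block, which used 4 samples, gave 252 calls, and deviations of same-numbered samples had r = -0.19 over genes. Windows of 36 and 75 bases gave shared sequence of 24.3% and 5.44% for Mup3, 60.4% and 43.6% for Mup20, and 28.2% and 10.3% for Mup21. Except where stated, the cause was not tested.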
